A study of Homo sapiens with 14 samples.

Results

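HEK293T cells, a human embryonic kidney line, carried the RNA base editor labelled dCas13d-ADAR together with a guide labelled EZH2 or a guide labelled NT, an abbreviation the labels do not spell out. Each guide was sampled in 2 libraries of polyadenylated RNA, so 4 of the 14 libraries of the series are described here, all read for 25 and 97 cycles. The members are all adenosine positions that these 4 libraries list as read as guanosine, taken with no threshold: 12349 distinct sites of the 26172 listed in the series. The value of a site is its A-to-G rate, a fraction from 0 to 1, read here as the editing level. All 4 libraries carried the editor, so no list shows the sites that the cells would have without it. The labels do not say how or for how long the editor was delivered, nor whether the 2 libraries of a guide are separate cultures. The p-values therefore cover only how these libraries vary, and that variation may be technical.

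ADAR enzymes convert adenosine to inosine in double-stranded RNA, and sequencing reads inosine as guanosine. An editor of this design joins a deaminase to a Cas13 protein that binds RNA without cutting it, and the guide brings the protein to a complementary stretch of a transcript, where the duplex of guide and target offers the adenosine to be converted. Deaminase that acts away from the guided position edits other transcripts, and a transcriptome-wide list of sites shows such events. EZH2, named by the guide, encodes the catalytic subunit of a Polycomb repressive complex, which methylates a histone and keeps genes silent. It lies towards the end of the long arm of chromosome 7. Coordinates are given in hg19 (GRCh37), which the submitters' processing notes name as the build. Sites were not assigned to genes, exons or strands, and the bases around them were not analysed here. The guide sequences and the adenosine they aim at are not in the labels, so no site could be marked as the intended one.

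The EZH2 and NT guides gave lists of almost the same length. NT replicates 1 and 2 listed 5730 and 5795 sites, and EZH2 replicates 1 and 2 listed 5834 and 5793, so the guides overlapped, with EZH2 replicate 2 below NT replicate 2. The ratio of geometric means, EZH2 over NT, was 1.01 (two-sided exact permutation p = 0.667). With 2 libraries against 2 the smallest p that 6 arrangements allow is 0.333, so none of the measures per library could pass 0.05. Median levels were 0.267 and 0.269 with NT and 0.267 and 0.263 with EZH2, a difference of -0.00304 (exact permutation p = 0.667). It was -0.00479 without EZH2 replicate 1, -0.00175 without NT replicate 2 and -0.00128 without EZH2 replicate 2. The quartiles were also close, with lower quartiles of 0.2 in every library and upper quartiles of 0.35 to 0.357. The lowest listed level was 0.0755 to 0.08 and the highest 0.909 to 0.923. Read depth per library and per site is unknown, so no counting error can be attached to a level, and a site that a list lacks may be unedited, edited below the threshold of the authors or too thinly covered.

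Highly edited sites made up a smaller share of the 2 EZH2 lists than of the 2 NT lists. Sites at a level of at least 0.5 were 6.89% and 7.77% of the NT lists (395 and 450 sites) and 6.36% and 6.51% of the EZH2 lists (371 and 377 sites). Both EZH2 libraries lay below both NT libraries. The difference was -0.896 percentage points (two-sided exact permutation p = 0.333, the smallest possible), and -0.46 points without NT replicate 2, the library with the most such sites. At a level of at least 0.2 the shares were 75.1% and 76.6% with NT and 75.9% and 75.1% with EZH2, which overlapped. Of the sites at 0.5 or more in a library, 50.1% to 52.5% were listed by all 4 libraries and 12.4% to 15.3% by that library alone; 53 sites reached 0.5 in all 4.

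About as many positions recurred between libraries of different guides as between libraries of the same guide. The 2 NT libraries shared 2929 positions, 51.1% of the shorter list and 50.5% of the longer. The 2 EZH2 libraries shared 2881, 49.7% and 49.4%. The 4 pairs that crossed guides shared 2875 to 2917 positions, 49.6% to 50.9% of the shorter list. Mean shares of the shorter list were 50.4% within guides and 50.3% between them, a gap of 0.075 points. The levels of shared positions were related to the same degree: Pearson's r over the positions shared by a pair was 0.691 for the NT pair, 0.644 for the EZH2 pair and 0.663 to 0.671 for the crossed pairs, a description across sites, which are not independent replicates. The mean absolute difference in level was 0.0772 within NT, 0.0807 within EZH2 and 0.0786 to 0.0791 between guides.

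**Figure D1:**
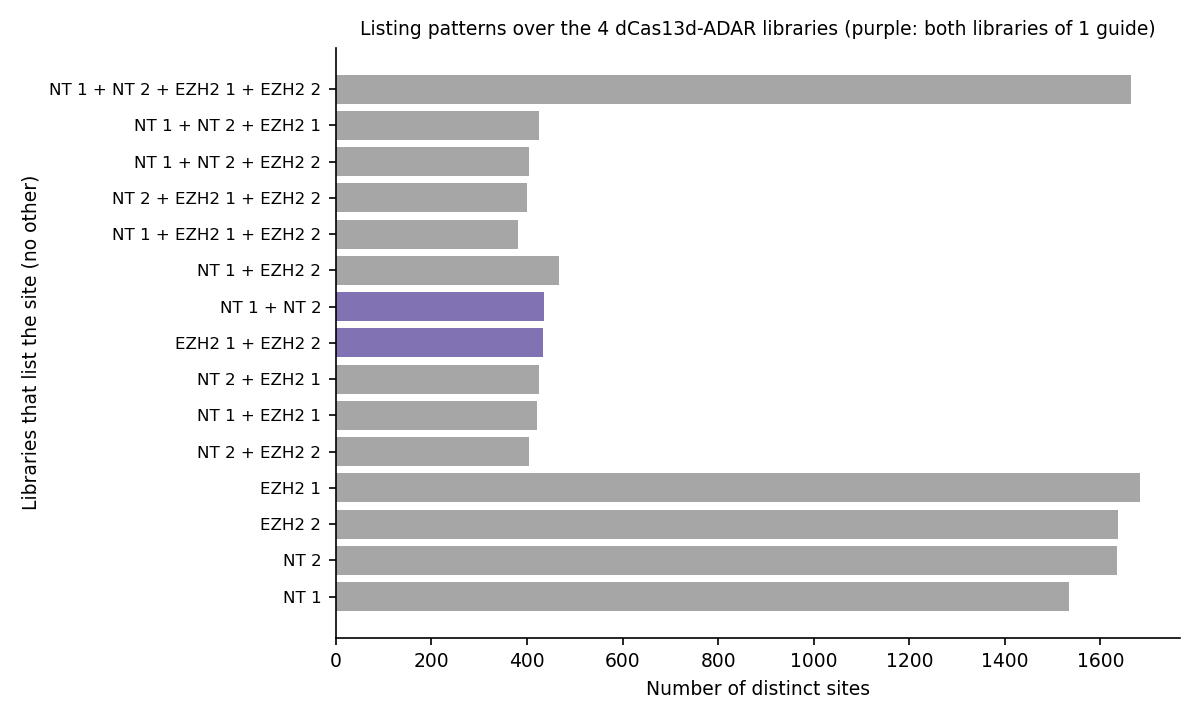
Number of distinct sites (x axis) for each combination of the 4 dCas13d-ADAR libraries that list a site and no other library of the 4 (y axis, guide and replicate number). The purple bars, both libraries of 1 guide and none of the other, hold 435 (NT) and 434 (EZH2) sites, within the 405 to 466 of the 4 pairs of libraries that mix guides.

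Most sites were not listed by every library, and those that were had the highest levels. Of the 12349 distinct sites, 6487 (52.5%) were in 1 library only, 2586 (20.9%) in 2, 1611 (13.0%) in 3 and 1665 (13.5%) in all 4. The median of the mean level was 0.25, 0.252, 0.266 and 0.317 in this order. The 3-library sites were spread evenly over the missing library, from 381 sites that only NT replicate 2 lacked to 425 that only EZH2 replicate 2 lacked. REPAIR.t1, another editor of the series that was run with NT and EZH2_A22 guides in 4 separate libraries, listed 28.5% of the sites in 1 dCas13d-ADAR library, 51.2% of those in 2, 70.8% of those in 3 and 89.3% of those in all 4. Most sites in 3 or 4 dCas13d-ADAR libraries were thus positions that REPAIR.t1 listed too.

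Sites of a higher level recurred more often, at like rates under the same and the other guide. Below a level of 0.15, 38.2% to 41.1% of the sites of a library were found in the other library of its guide and 36.5% to 43.1%, averaged over both, in the libraries of the other guide. Between 0.3 and 0.4 these shares were 51.9% to 53.5% and 52.5% to 55.1%. At 0.5 or more they were 69.8% to 71.9% and 68.5% to 70.8%. The ranges of same-guide and other-guide shares overlapped in each of these classes.

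**Figure D2:**
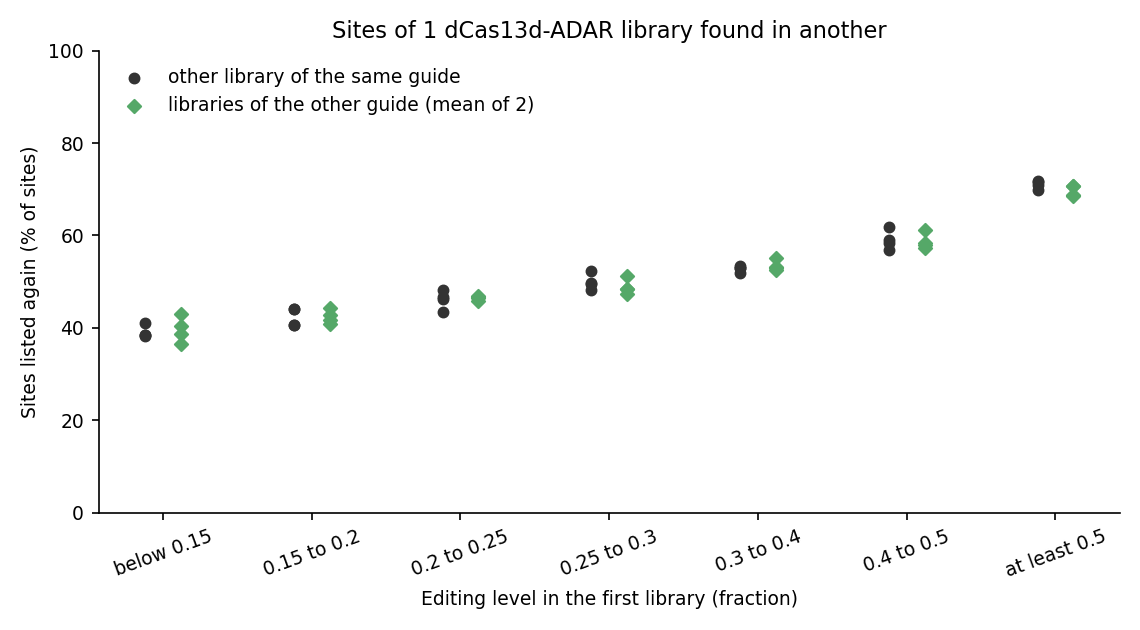
Share of the sites of 1 library that another library lists (y axis, percent) by the editing level in the first library (x axis, fraction), with 1 point per library: circles for the other library of the same guide, diamonds for the mean over the 2 libraries of the other guide. Both series climb together from about 39.1% and 39.6% on average below a level of 0.15 to 71.1% and 69.7% at 0.5 or more.

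Sites seen with a single guide were equally many on both sides. In both EZH2 libraries and neither NT library there were 434 sites, 3.51% of the distinct sites, and in both NT libraries and neither EZH2 library 435, or 3.52%. These are 15.1% and 14.9% of the sites that both libraries of the respective guide list. Their levels matched too, with medians of the mean level of 0.25 and 0.254, and 8 and 12 sites at a mean of 0.5 or more. For 80.6% of the EZH2 set and 79.3% of the NT set, no site of the other guide lay within 50 bases. Sites without a close neighbour were the rule in every list. Of all sites of a library, 24.7% to 25.9% had another site of that library within 50 bases. This share is taken within 1 list and so is not the same measure.

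The separate libraries of REPAIR.t1 listed a part of both sets, under both guides. Over its own 10648 distinct sites, REPAIR.t1 had 406 (3.81%) in both EZH2_A22 libraries and no NT library and 338 (3.17%) with the reverse. Of the 434 EZH2 sites, 165 (38.0%) were in a REPAIR.t1 library with the EZH2_A22 guide and 168 (38.7%) in a REPAIR.t1 NT library. Of the 435 NT sites, 167 (38.4%) were in an EZH2_A22 library and 147 (33.8%) in an NT library. Of the EZH2 sites, 1 was in both REPAIR.t1 EZH2_A22 libraries and no REPAIR.t1 NT library, and 10 had the opposite pattern. Of the NT sites, 6 were in both REPAIR.t1 NT libraries and no EZH2_A22 library, and 15 had the opposite pattern. These small counts are descriptions, without the share over all dCas13d-ADAR sites beside them, so no direction can be read from them. REPAIRv2, an editor run with NT and EZH2_A22 guides in 2 libraries each and the same read cycles, listed 7 and 2 of the EZH2 and NT sets. DECOR, run with a MALAT1 guide in 2 libraries of 62 and 160 read cycles, listed 10 and 7. Of all 2586 sites in 2 dCas13d-ADAR libraries, REPAIRv2 listed 20 and DECOR 56.

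The 5 highest sites of the EZH2 set were mostly not listed by REPAIR.t1, but the set as a whole was listed about as often as the NT set. In any of its libraries REPAIR.t1 listed 226 (52.1%) of the 434 EZH2 sites and 213 (49.0%) of the 435 NT sites. Position 241654417 on chromosome 2 stood at 0.571 and 0.9 in EZH2 replicates 1 and 2, position 54659633 on chromosome 19 at 0.6 and 0.714, and position 61607840 on chromosome 11 at 0.5 and 0.7. REPAIR.t1 listed none of these 3. Position 73060562 on chromosome 10 stood at 0.571 and 0.6, and position 43099898 on chromosome 6 at 0.429 and 0.727; REPAIR.t1 listed the former in 1 EZH2_A22 library, at 0.7, and the latter in 1 NT library, at 0.4. All 5 had levels of at least 0.4 in both EZH2 libraries, and the sites on chromosomes 2 and 6 differed most between them.

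Each of the highest NT sites was also listed by REPAIR.t1, and 2 of the 5 with the EZH2_A22 guide. Position 139818310 on chromosome 9 stood at 0.643 and 0.8 in NT replicates 1 and 2 and was in all 4 REPAIR.t1 libraries, at 0.5 and 0.846 with NT and 0.545 and 0.8 with EZH2_A22. Position 130569269 on the same chromosome stood at 0.583 and 0.467, and in REPAIR.t1 at 0.526 in 1 NT library and 0.312 and 0.286 with EZH2_A22. The other 3 were position 61576592 on chromosome 20 (0.647 and 0.583), position 52227582 on chromosome 1 (0.571 and 0.5) and position 80856671 on chromosome 9 (0.529 and 0.5), which REPAIR.t1 listed in NT libraries alone. Absence from both dCas13d-ADAR EZH2 lists thus did not extend to the EZH2_A22 lists of REPAIR.t1 at these 2 sites.

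At positions with a level in every library, no site passed the test between guides. All 4 libraries listed 1665 sites, and with limma fitted to the log2 odds of their levels 0 (0%) reached an adjusted p under 0.05. Before adjustment 87 (5.23%) had p under 0.05, and the smallest adjusted value was 0.381. The signs were balanced, 832 sites higher and 833 lower with EZH2, with a median log2 odds difference of -0.00084; the 10th and 90th percentiles were -0.71 and 0.64. The test does not show that levels were equal. The median half-width of the 95% interval was 1.02 log2 units of odds, and 0.152 in a separate fit to the untransformed level. In the fit to the log2 odds the interval lay within 2 units either way at 1537 sites (92.3%) but within 1 unit at 5. Mean levels over the 1665 sites were 0.328 and 0.333 with NT and 0.326 and 0.328 with EZH2 (difference -0.00355, two-sided exact permutation p = 0.667), and the difference was 0.000546 without NT replicate 2 and -0.00218 without EZH2 replicate 1.

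**Figure D3:**
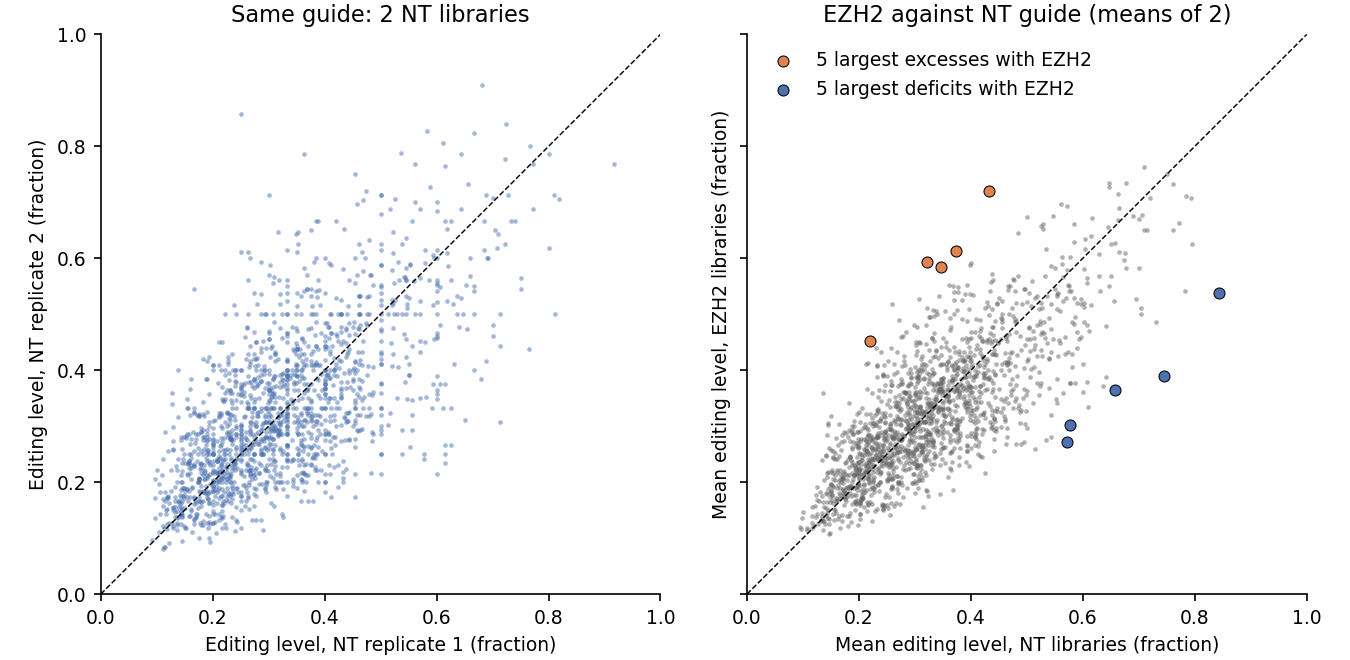
Editing levels (fractions) at the 1665 sites listed by all 4 libraries, 1 point per site, with the line of equality dashed. Left, NT replicate 2 against NT replicate 1, single libraries; right, the mean of the 2 EZH2 libraries against the mean of the 2 NT libraries, with the 5 sites of largest difference on each side coloured, none of which passed the test.

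Differences between guides were of the size of those between libraries of 1 guide. The median absolute difference between guide means was 0.0476, against 0.0646 between the 2 NT libraries and 0.0753 between the 2 EZH2 libraries. The former averages libraries and so varies less. The guide means differed by at least 0.1 at 328 sites (19.7%), 143 higher and 185 lower with EZH2, and by at least 0.2 at 37 (2.22%), 10 higher and 27 lower. Both EZH2 libraries lay above both NT libraries at 251 sites (15.1%) and below them at 277 (16.6%). At the 76 of the 251 that all 4 REPAIR.t1 libraries list, 41 (53.9%) were higher with EZH2_A22 in that editor, and at the 112 of the 277, 59 (52.7%) were. Over all 609 sites in the 8 libraries of both editors this share was 56.3%. The sites of either direction at dCas13d-ADAR thus had shares in REPAIR.t1 close to each other and to that of all sites.

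The 5 sites with the largest excess under EZH2, none past the test, were on chromosomes 19, 9 and 3. Position 50314663 on chromosome 19 stood at 0.308 and 0.556 in NT replicates 1 and 2 and 0.652 and 0.789 in EZH2 replicates 1 and 2 (difference in means 0.289; limma log2 odds difference 1.79, SE 0.55, adjusted p = 0.617). Position 131770896 on chromosome 9 stood at 0.364 and 0.278 against 0.588 and 0.6 (1.61, 95% interval 0.6 to 2.61), and the EZH2 libraries were close together. REPAIR.t1 listed it in 1 NT library, at 0.4, and in no EZH2_A22 library. Position 133331383 on chromosome 3 stood at 0.412 and 0.333 against 0.688 and 0.538. Position 10941722 on chromosome 19 stood at 0.4 and 0.294 against 0.696 and 0.474, and position 1399572 on that chromosome at 0.238 and 0.2 against 0.438 and 0.467. In REPAIR.t1, position 50314663 was at 0.417 in 1 NT library and 0.429 and 0.467 in both EZH2_A22 libraries. The latter were higher, but only 1 NT library listed the site, at a level close to 0.429. Position 10941722 was at 0.333 and 0.357 with NT and 0.3 and 0.409 with EZH2_A22, and position 133331383 at 0.429 and 0.667 against 0.688 and 0.4, and at both the guides overlapped. Position 1399572 was in 1 library of each guide, at 0.286 with NT and 0.267 with EZH2_A22.

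The 5 sites with the largest deficit under EZH2, again none past the test, had differences of -0.276 to -0.356, against 0.233 to 0.289 for the 5 with the largest excess. Position 156242120 on chromosome 1 stood at 0.667 and 0.824 with NT and 0.3 and 0.478 with EZH2 (limma log2 odds difference -2.23, SE 0.53, 95% interval -3.34 to -1.12, adjusted p = 0.381). Position 36296063 on chromosome 11 stood at 0.917 and 0.769 against 0.462 and 0.615 (log2 odds difference -2.28, limma adjusted p = 0.381). These 2 had the smallest unadjusted p of all sites, 0.000412 and 0.000458 in limma. Position 14591125 on chromosome 19 stood at 0.619 and 0.524 against 0.267 and 0.278. On chromosome 17, position 40126944 stood at 0.588 and 0.727 against 0.364 in both EZH2 libraries, and position 40126256 at 0.6 and 0.556 against 0.368 and 0.235. At position 156242120 REPAIR.t1 stood at 0.412 and 0.368 with NT and 0.4 and 0.438 with EZH2_A22, so only the NT libraries of dCas13d-ADAR were high there. At position 14591125 REPAIR.t1 stood at 0.353 and 0.368 with NT and 0.292 and 0.235 with EZH2_A22, lower with that guide without overlap, as in dCas13d-ADAR. Position 36296063 stood at 0.727 and 0.455 with NT and 0.562 in 1 EZH2_A22 library, between the NT values. REPAIR.t1 listed position 40126944 in 1 EZH2_A22 library (0.429) and position 40126256 in 1 library of each guide (0.211 with NT and 0.231 with EZH2_A22).

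**Figure D4:**
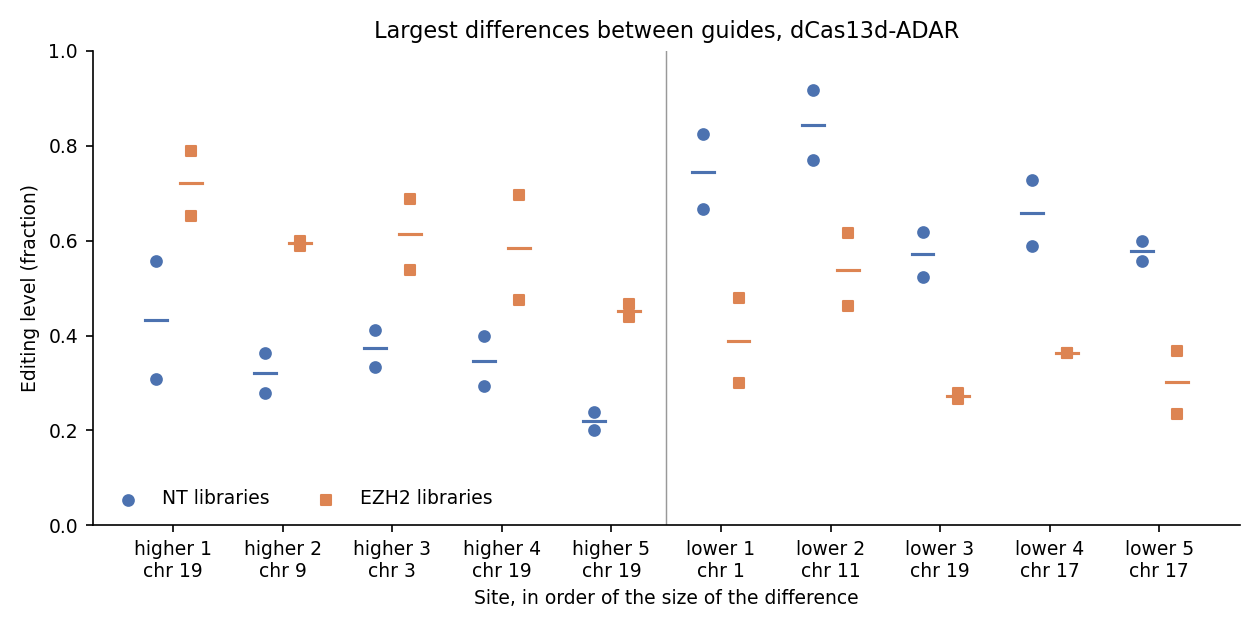
Editing level (y axis, fraction) in each library at the 10 sites with the largest differences between guide means, 5 higher and 5 lower with EZH2, labelled by chromosome in the order of the text. Circles are the 2 NT libraries, squares the 2 EZH2 libraries and lines their means; the groups do not overlap because sites were picked among those without overlap.

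The mean difference between guides was most negative at the most edited positions. Among the 1665 sites, the mean difference was 0.00287 at the 196 sites of a mean level below 0.2, 0.00327 at the 531 from 0.2 to 0.3, -0.00168 at the 553 from 0.3 to 0.4, -0.0115 at the 247 from 0.4 to 0.5 and -0.0322 at the 138 at 0.5 or more. At these 138 sites the mean level was 0.59 and 0.603 in the NT libraries and 0.557 and 0.572 in the EZH2 libraries, with 52 sites higher and 86 lower under EZH2 (two-sided exact permutation p = 0.333, the smallest possible). This class was examined after the values were seen. With a library left out, the class was formed anew from the remaining libraries and so held other sites. The difference was then -0.0163 without NT replicate 2 (144 sites) and -0.0189 without EZH2 replicate 1 (163 sites). It was -0.0414 without NT replicate 1 (155 sites) and -0.0366 without EZH2 replicate 2 (174 sites). At the 86 of the 138 sites that all 4 REPAIR.t1 libraries list, the EZH2_A22 minus NT difference of that editor was 0.0188 (0.452 and 0.441 against 0.477 and 0.454). That of dCas13d-ADAR was -0.0224.

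**Figure D5:**
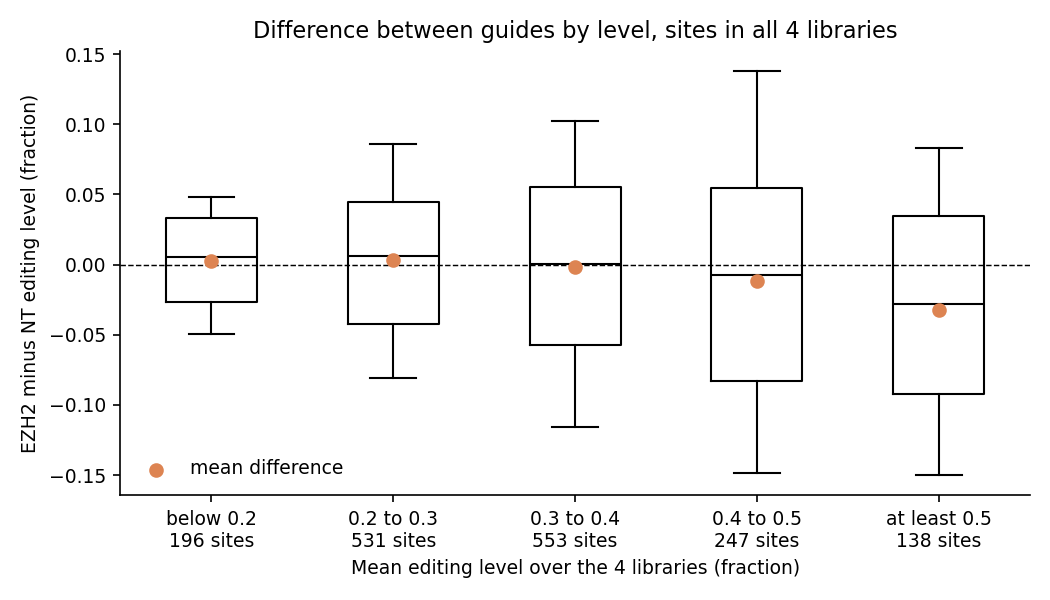
Difference in editing level, EZH2 minus NT means (y axis, fraction), at the 1665 sites in all 4 libraries by mean level (x axis). Boxes span the quartiles with the median as a line, whiskers the 10th to 90th percentile, and orange points the class mean, from 0.00287 below a level of 0.2 to -0.0322 at 0.5 or more.

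The 5 most edited recurrent sites did not pass the test, and at 4 of them the guides overlapped. Position 195778213 on chromosome 3 had the highest mean, 0.751, at 0.8 and 0.786 with NT and 0.917 and 0.5 with EZH2, so the 2 EZH2 libraries lay on either side of NT. Position 79614895 on chromosome 15 stood at 0.722 and 0.778 against 0.688 and 0.815 (limma log2 odds difference 0.04, 95% interval -1.0 to 1.08). Position 156209533 on chromosome 1 stood at 0.8 and 0.619 against 0.767 and 0.76. On chromosome 8, position 48713401 stood at 0.81 and 0.714 against 0.733 in both EZH2 libraries, and position 48890109 at 0.767 and 0.8 against 0.682 and 0.739. Only at the last of these 5 did the guides not overlap (log2 odds difference -0.54, limma adjusted p = 0.972). Singled out afterwards for the smallest spread among sites of a mean of at least 0.5, position 10939746 on chromosome 19 stood at 0.522 and 0.52 against 0.5 and 0.519.

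A minority of sites had a close neighbour, and clusters of sites were tested as units. A neighbour within 50 bases was listed for 25.5% and 25.9% of the sites of the NT libraries and 24.7% and 25.6% of those of the EZH2 libraries (difference -0.567 points, two-sided exact permutation p = 0.667; -0.126 without EZH2 replicate 1, -0.374 without NT replicate 2 and -1.01 without EZH2 replicate 2). Joining sites with gaps of at most 50 bases gave 9987 clusters, of which 8230 were single sites, 40 held at least 5 positions and the largest 8. In 1607 clusters every library listed at least 1 position. By the mean level of their listed positions 0 clusters (0%) passed in limma after adjustment, 87 had an unadjusted p under 0.05, and the smallest adjusted value was 0.354. Both EZH2 libraries lay above NT at 247 clusters (15.4%) and below at 263 (16.4%).

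In the 3 clusters with most positions, chosen after their values were seen, the guides overlapped. The cluster on chromosome 22 from 39710719 to 39710827 held 8 positions, of which NT replicates 1 and 2 listed 7 and 5 and the EZH2 replicates 6 and 8, at mean levels of 0.157, 0.123, 0.141 and 0.132. That on chromosome 5 from 175819724 to 175819871 listed 5, 4, 5 and 4 positions in this order, at 0.251, 0.22, 0.24 and 0.223. On chromosome 15, from 72491525 to 72491640, the libraries listed 7, 5, 5 and 3 positions, at 0.309, 0.369, 0.367 and 0.439, with the fewest positions where the mean was highest. Among clusters without overlap, the largest excess and deficit were at sites named above, or at clusters of 2 positions: on chromosome X from 54471590 to 54471601 (0.353 and 0.449 against 0.643 and 0.706) and on chromosome 17 from 40126944 to 40126958 (0.588 and 0.727 against 0.307 and 0.364), with limma adjusted p of 0.411 and 0.354. In each of these 2 clusters 1 library listed a position that the others did not. At the position of the chromosome X cluster that all 4 libraries list, 54471601, the levels were 0.353 and 0.647 with NT and 0.643 and 0.706 with EZH2, so the guides overlapped, and the separation of the cluster means came with position 54471590, listed by NT replicate 2 alone at 0.25. In the chromosome 17 cluster position 40126958 was listed by EZH2 replicate 1 alone, at 0.25, and the shared position was without overlap by itself.

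Chromosome 7, which carries EZH2, was listed in proportion. It held 261 and 275 sites in the NT libraries and 283 and 273 in the EZH2 libraries, 4.55% and 4.75% against 4.85% and 4.71% of the lists, which overlapped (fold 1.03, limma adjusted p = 0.832). Of its 585 distinct sites 18 (3.08%) were in both EZH2 libraries and no NT library and 20 (3.42%) in both NT libraries and no EZH2 library, near the 3.51% and 3.52% over all distinct sites. The highest of the 18 were position 107559793 (0.4 and 0.5 in EZH2 replicates 1 and 2), position 65617650 (0.429 and 0.385) and position 72891916 (0.462 and 0.346). REPAIR.t1 listed position 107559793 in all 4 libraries, NT included, position 65617650 in 1 EZH2_A22 library and position 72891916 in none. The highest of the 20 were position 935750 (0.385 and 0.455 in NT replicates 1 and 2), position 135614171 (0.364 and 0.4) and position 44618089 (0.522 and 0.211), each of which REPAIR.t1 also listed with the EZH2_A22 guide.

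Towards the end of the long arm of chromosome 7, where EZH2 lies, a few positions were higher or listed only with the EZH2 guide. Most positions of the stretch did not separate the guides. The stretch was picked with its values in view, around a position listed by both EZH2 libraries and no NT library. Such a position was therefore bound to be in it. Whether these positions lie in EZH2 was not analysed here. Within 20000 bases of position 148515165 the 4 libraries listed 7 positions, of which 1 was in all 4. That site, position 148506203, stood at 0.25 and 0.294 with NT and 0.588 and 0.391 with EZH2, without overlap (difference 0.218; limma log2 odds difference 1.33, SE 0.51, 95% interval 0.27 to 2.39, adjusted p = 0.848). It ranked 8 among the 251 sites that were higher with EZH2 without overlap. In REPAIR.t1 the same site stood at 0.346 and 0.368 with NT and 0.409 and 0.286 with EZH2_A22, where the guides overlapped.

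Among the other positions, 2 were listed by both EZH2 libraries and neither NT library. Position 148506205, at a distance of 2 bases, stood at 0.24 and 0.226 in the EZH2 libraries and was in neither NT library, but REPAIR.t1 listed it in both NT libraries (0.242 and 0.238) and 1 EZH2_A22 library (0.31). Position 148515165, at 8962 bases, stood at 0.435 and 0.25 in the EZH2 libraries and was in no NT or REPAIR.t1 library. The other 4 positions of the stretch did not separate the guides: position 148507436 was listed by NT replicate 2 (0.304) and EZH2 replicate 1 (0.364), position 148511193 by both replicates 2 (0.154 and 0.16), position 148504738 by NT replicate 1 alone and position 148525875 by EZH2 replicate 1 alone.

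Across chromosomes the shares of sites were alike. Of 23 chromosomes tested in limma on the log2 percent of sites, 0 (0%) passed after adjustment and 1 had an unadjusted p under 0.05. Chromosome 19 held most sites, 13.1% and 12.7% of the NT lists and 12.9% and 12.3% of the EZH2 lists. Chromosome 13, with few sites, was the 1 below 0.05: NT libraries listed 31 and 33 sites there and EZH2 libraries 23 and 32 (fold 0.841, limma adjusted p = 0.0892). EZH2 replicate 1 was low and EZH2 replicate 2 was between the NT libraries in number. The fit gave every chromosome the same SE, 0.08, whether it held few sites or many. With a spread allowed to change with the mean share, 0 chromosomes had an unadjusted p under 0.05 (smallest limma adjusted p 0.809). The same held at levels of at least 0.2 (0.641). At levels of at least 0.1, and with the replicate number as a block, 1 chromosome stayed under 0.05 unadjusted (smallest limma adjusted p 0.096 and 0.0738). Without EZH2 replicate 2 the log2 difference at chromosome 13 was -0.49. The EZH2 side is then the single library with 23 sites, assumed to vary like the NT libraries.

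Compared with REPAIR.t1, no site passed for a difference in the guide effect, but more sites had a lower than a higher effect in dCas13d-ADAR. The guide is labelled EZH2 in dCas13d-ADAR and EZH2_A22 in REPAIR.t1, and neither sequence is in the labels. Editor and guide therefore cannot be told apart in this comparison. The ratio of site numbers, EZH2 over NT, was 1.01 for dCas13d-ADAR and 1.06 for REPAIR.t1, and the former was 0.954 times the latter (two-sided exact permutation p = 0.389, with guides permuted inside each editor, where 36 arrangements allow no p below 0.0556). Site by site, 0 of 609 sites (0%) passed for the interaction of editor and guide in limma after adjustment. The interaction was positive at 257 sites (42.2%) and negative at 352, with a median of -0.165 log2 odds. All 609 sites were measured in the same libraries, so these counts are not 609 independent results. Unadjusted, 41 (6.73%) had p under 0.05, the smallest adjusted value was 0.204, and the median half-width of the 95% interval was 1.44 log2 units. Measures per library also differed in sign: EZH2_A22 minus NT in REPAIR.t1 was 0.012 for the median level, 0.00883 for the mean level at common sites and 1.04 points for the share of sites with a neighbour, each negative in dCas13d-ADAR (exact permutation p = 0.111 for each difference between editors, adjusted p = 0.111 over 4 measures). The site with the smallest adjusted value was position 57505169 on chromosome 16, at 0.657 and 0.733 with NT and 0.538 and 0.517 with EZH2 in dCas13d-ADAR, and at 0.312 and 0.269 with NT and 0.538 and 0.607 with EZH2_A22 in REPAIR.t1. Guides did not overlap in either editor and the directions were opposite. Position 156242120 on chromosome 1 was next on this side. On the other side, position 49469892 on chromosome 19 stood at 0.548 and 0.511 against 0.591 and 0.714 in dCas13d-ADAR and 0.641 and 0.476 against 0.267 and 0.412 in REPAIR.t1, and position 38266348 on chromosome 22 at 0.281 and 0.289 against 0.467 and 0.469, and 0.486 and 0.333 against 0.333 and 0.214 (limma adjusted p = 0.518 for both).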

How the data were processed

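The authors deposited 1 list per library with chromosome, position and A-to-G rate, per the file headers; the rates are fractions between 0 and 1. STAR 2.6.1b, cutadapt and the builds hg19 and GRCh37 are named in the submitters' processing notes, with neither order nor purpose. How sites were called, at which coverage and rate, and how genomic variants were handled is not given in the sources used here.

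Groups came from the titles. Measures per library, 2 against 2, were tested by exact permutation, two-sided. The files hold no read counts, so the logistic model of reads that was the first choice could not be run. Levels per site and cluster were tested in limma 3.58.1 with empirical Bayes moderation on log2((level + 0.01) / (1 - level + 0.01)), over sites or clusters in all libraries compared, with Benjamini-Hochberg adjustment over all of them and a threshold of 0.05; fits were checked on simulated data. Chromosome shares were tested on log2 percent, and the interaction with REPAIR.t1 over 8 libraries. Alternatives were minimum levels of 0.1 and 0.2, other gaps of 10 and 200 bases, an offset of 0.001, untransformed levels, a trend, the replicate block and each library left out.

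Sites were named by rule: the 5 largest differences each way among sites in all 4 libraries without overlap, the 5 highest with 1 guide only and in all 4 libraries, the 3 highest with 1 guide only on chromosome 7, the 3 largest cluster differences each way and the 2 strongest interactions each way. Any other named site or cluster is marked as picked with its values in view. The members, lists and rules were chosen with earlier results of these data known. Calculations used Python 3.11.15 with pandas 2.3.3 and numpy 2.4.6, and R 4.3.3; figures used matplotlib 3.10.9.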

Additional observations from a re-analysis of the deposited data

Results flagged for a closer look

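Highly edited sites, those at 0.5 or above, differed between guides in opposite directions in the 2 editors. In dCas13d-ADAR both EZH2 libraries lay below both NT libraries, with a difference of -0.896 percentage points, and in REPAIR.t1 both EZH2_A22 libraries (4.74% and 5.08%) lay above both NT libraries (4.33% and 4.27%), with a difference of 0.609 points. The difference between these differences was -1.51 points (two-sided exact permutation p = 0.0556, guide labels permuted within each editor, the smallest p that 36 arrangements allow). Adjusted over this and 3 like tests (median level, mean level at common sites, share of sites with a neighbour) it was 0.111. The other 3 differences had exact permutation p = 0.111 each. These 4 tests were chosen after the data were seen. The lists of REPAIR.t1 were shorter, and the part of list length in this result was not tested. The EZH2 guides also carry different labels in the 2 editors, so editor and guide cannot be told apart here.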

How the results depend on the processing

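No site or cluster passed under any of the alternatives run, over 1134 to 3276 sites (smallest adjusted p 0.333 to 0.94 in limma, 58 to 130 sites at an unadjusted p below 0.05) and 1131 to 1990 clusters (0.157 to 0.907, 64 to 93 clusters). With the replicate number as a block 0 sites and 0 clusters passed, and the block changed no other call. The labels do not say whether same-numbered libraries were handled together. Their deviations from the group means correlated at 0.0239 over 1665 sites, a description across sites that cannot settle whether the libraries were paired. The interaction with REPAIR.t1 was passed by 0 sites when any library was left out (smallest adjusted p 0.053 to 0.865 in limma over these and the block, 25 to 44 sites at an unadjusted p below 0.05). With a library left out, 0 to 1 chromosomes passed; the 1 was chromosome 13 without EZH2 replicate 2. The mean difference at sites in all libraries ran from -0.00533 to 0.000546 with a library left out, and was above 0 only without NT replicate 2. Sites listed with 1 guide only numbered 815 to 2116 for EZH2 and 839 to 2069 for NT with a library left out, which loosens the rule and can only raise them. Of 100 values under alternatives, 90 counted as the same, by a rule that differed between measures. For measures per library it was the sign, and for fits the number passing. For sites with 1 guide only it was a like number, and for overlaps a gap close to the main one. The permutation tests could not pass 0.05 under any setting, so for them the rule says nothing about a call. Unknown depth limits every level.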
